A study of Rattus norvegicus with 60 samples.

Results

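The genes described here encode the selectins, integrins and immunoglobulin-like adhesion molecules with which white blood cells leave the bloodstream: Selp, Sele, Selplg, Icam1, Vcam1, Itgam, Itgb2, Itgal and Madcam1. A member was represented by the probe set annotated with its gene symbol and no other symbol, and by the probe set with the highest mean where several existed. All 9 members were found, each with 1 probe set, among the 18166 genes that the array represents in this way. They were listed by gene name, with earlier results of these data known.

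The arrays came from 20 rats with haemophilia A, in which blood clots poorly for want of coagulation factor VIII, and every group, sham included, carried this disorder. In 11 rats a bleed had been induced in the left knee, which the labels call injured, and 9 other rats had undergone a sham procedure; tissue was taken 24 h later. The bled rats gave tissue from inside the bled knee, tissue from the untouched right (contralateral) knee, and the popliteal lymph node of each side, so that these 4 groups held 11 arrays each from the same animals. The sham rats gave 9 popliteal nodes and 7 knees, all from the right side, after 2 knees had yielded too little RNA. Each array was hybridized with RNA from 1 tissue sample of 1 rat, and the sources used here give no strain, sex or age. The bled side was always the left and the others the right, so bleed, injury and body side cannot be told apart.

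In inflamed tissue, leukocytes first roll along the vessel wall on selectins, which bind sugar-modified ligands such as the P-selectin glycoprotein ligand. Chemokine signals then switch leukocyte integrins to a binding state, and these hold on to immunoglobulin-like ligands on the endothelium until the cell crawls out. P-selectin is stored ready-made in endothelial and platelet granules. E-selectin and the vascular ligands are mostly made after cytokine signals.

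The tissue labels matched the marker genes of the tissues. Prg4, the lubricin gene of the joint lining, had a mean log2 value of 13.1 in sham knees and 7.66 in sham nodes, and Glycam1, a gene of high endothelial venules, had 5.34 and 12.77. The median of all probe sets on an array lay between 5.64 and 5.94. Skeletal muscle markers varied widely among knees of each group (list means from 6.3 to 12.69), and the sham knee of rat C5 and the sham nodes of rats C2 and C9 correlated less with their groups than the other arrays did.

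In the bled knees, 6 of the 9 members were higher than in the contralateral knees and 1 was lower at a limma adjusted p under 0.05, a setting in which 34.7% of all 36685 probe sets were called (19.5% higher and 15.2% lower). The 6 were Selp, Sele and Selplg of the rolling step and the integrin chains Itgam, Itgb2 and Itgal; the lower gene was Vcam1. Icam1 and Madcam1 did not pass. The median difference of the 9 was 1.57 on the log2 scale, against 0 for all probe sets. For 4 members (Selp, Selplg, Itgam and Itgb2) every bled knee exceeded every contralateral knee, which held for 7.9% of all probe sets. In bulk tissue, fewer cells of a type and less RNA per cell cannot be told apart, and the same holds for more cells and more RNA.

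**Figure D1:**
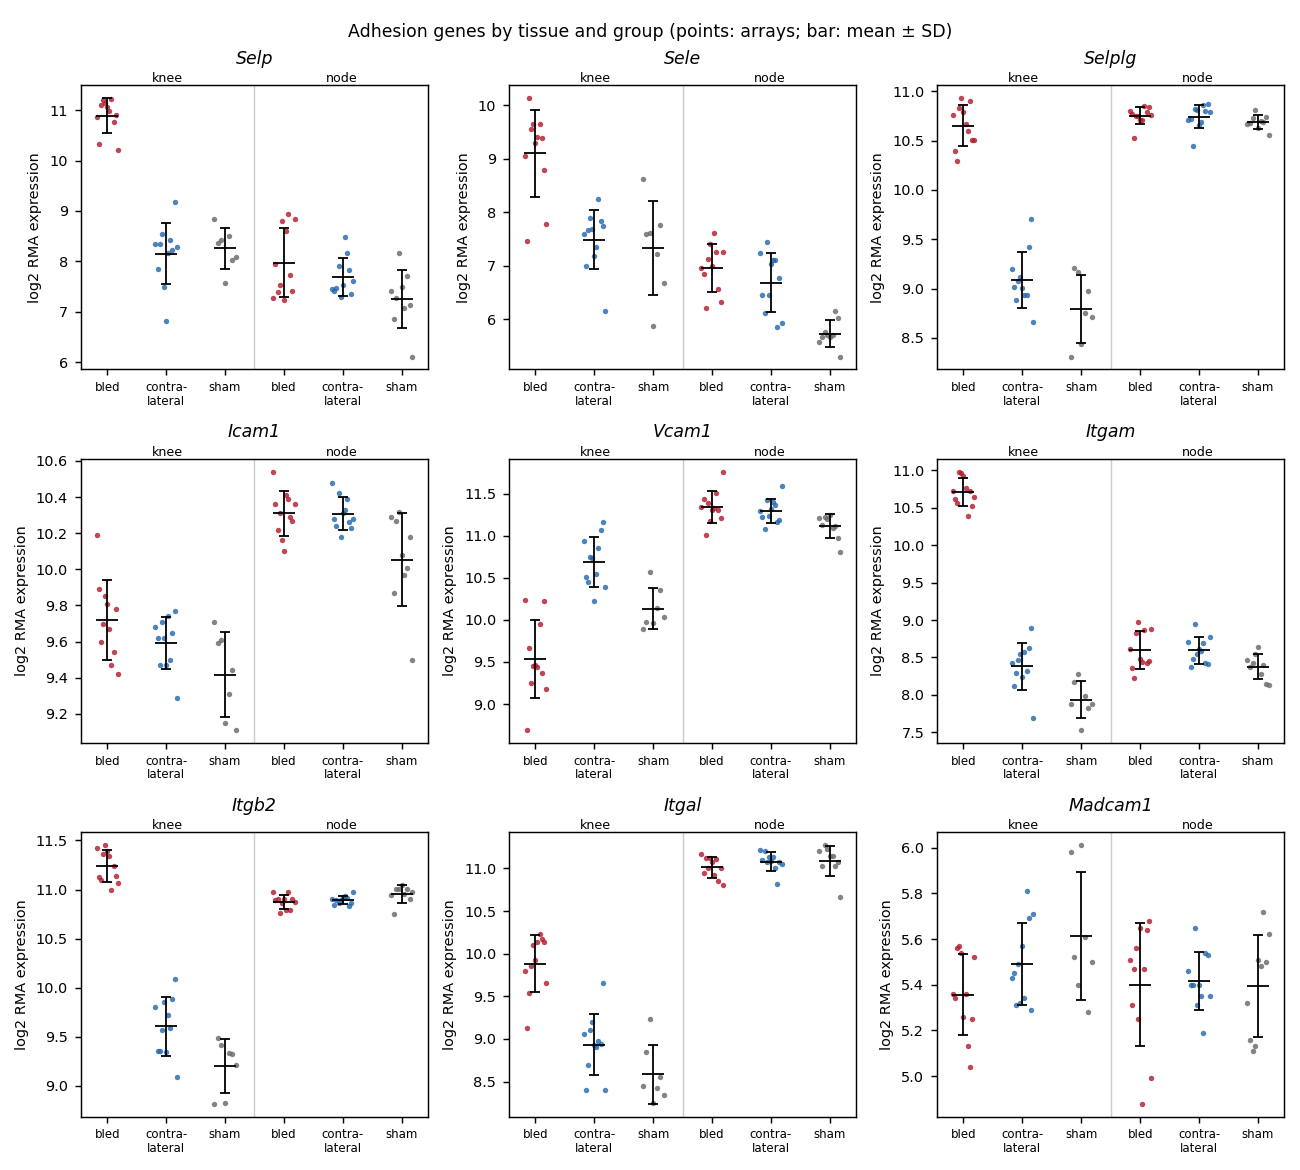
Log2 RMA expression of the 9 adhesion genes, 1 panel per gene, in bled, contralateral and sham knees (left of the grey line) and nodes (right of it). Points are arrays and bars are mean ± SD (n = 11, 11, 7, 11, 11 and 9 from left to right); Selp, Selplg, Itgam and Itgb2 stand clear of the other knees in the bled knees, Vcam1 lies lower there, and Sele in sham nodes lies below all bled-side nodes. The vertical scale differs between panels and does not start at 0.

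Selp encodes P-selectin, the selectin of activated endothelium and platelets. Its log2 values ran from 10.2 to 11.23 in the bled knees (median 10.99), from 6.81 to 9.17 in the contralateral knees (median 8.28) and from 7.57 to 8.84 in the sham knees (median 8.36). The bled knees stood apart from all other knees, and the contralateral and sham knees overlapped. The bled knees exceeded the contralateral knees by 2.74 ± 0.19 (SE; limma adjusted p = 5.43e-13), which is 6.69-fold (95% interval 5.09 to 8.79) and the 136th largest difference of the 36685 probe sets. Against sham knees, which is not an independent comparison because the same bled arrays enter it, Selp was 6.2-fold higher (2.63 ± 0.22, limma adjusted p = 2.74e-11). Within rats, Selp was higher on the bled side in 11 of 11, by 1.73 (rat K10) to 4.25 (rat K6).

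Sele encodes E-selectin, which endothelial cells make after stimulation. The bled knees had log2 values from 7.46 to 10.13 (median 9.38), the contralateral knees from 6.16 to 8.24 (median 7.66) and the sham knees from 5.87 to 8.62 (median 7.6). The ranges overlapped, although 9 of the 11 bled knees lay above every contralateral knee; the bled knees of rats K2 (7.46) and K11 (7.77) did not. Sele was 3.06-fold higher in bled than in contralateral knees (1.62 ± 0.30, limma adjusted p = 4.43e-05) and 3.4-fold higher than in sham knees (1.77 ± 0.34, limma adjusted p = 7.73e-05), and higher on the bled side in 11 of 11 rats. The spread among bled knees was the widest of the 9 members there (SD 0.81, against 0.35 for Selp).

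The same knees of rats K2 and K11 were also lowest for Selp (10.32 and 10.2). Across the 11 bled knees Selp and Sele correlated with a Pearson r of 0.92 (permutation p = 0.00108, adjusted over 12 relations 0.00324) and a Spearman rho of 0.85 (permutation p = 0.00205). Without K11 and K2, r was 0.61 (permutation p = 0.0819, n = 9). Leaving out the lowest Selp values also narrows the range, so this cannot show how far the relation rested on these knees. In the contralateral knees r was 0.29 (permutation p = 0.366) and rho 0.57 (permutation p = 0.0708). The bled knees of K2 and K11 had the highest means of the neutrophil markers in their group (8.81 and 7.79, against 6.54 to 7.73 in the other 9), and K2 also the highest mean of the platelet markers (7.23); their part in the low selectin values was not tested.

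Markers of the vessel wall went the other way from the selectins. Of 12 measured endothelial markers, 10 were lower and 0 higher in bled than in contralateral knees by limma's adjusted p, with list means from 8.63 to 9.17 in bled, from 9.28 to 10.06 in contralateral and from 9.35 to 9.97 in sham knees. Cdh5, the junctional cadherin of endothelium, was lower by -0.82 (log2 difference), and its lowest value in a bled knee was 9.98, well above the array medians. Of 8 platelet markers 1 was higher in bled knees and none lower (Pf4, 1.31 ± 0.18, limma adjusted p = 3.06e-07), while Itga2b, the platelet integrin chain, differed by -0.13 ± 0.14 (limma adjusted p = 0.553). Platelet list means ran from 6 to 7.23 in bled, 6.03 to 7.06 in contralateral and 5.72 to 6.11 in sham knees, so bled and contralateral knees overlapped. The part of vessel density and of platelet content in the selectin values was not tested.

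**Figure D2:**
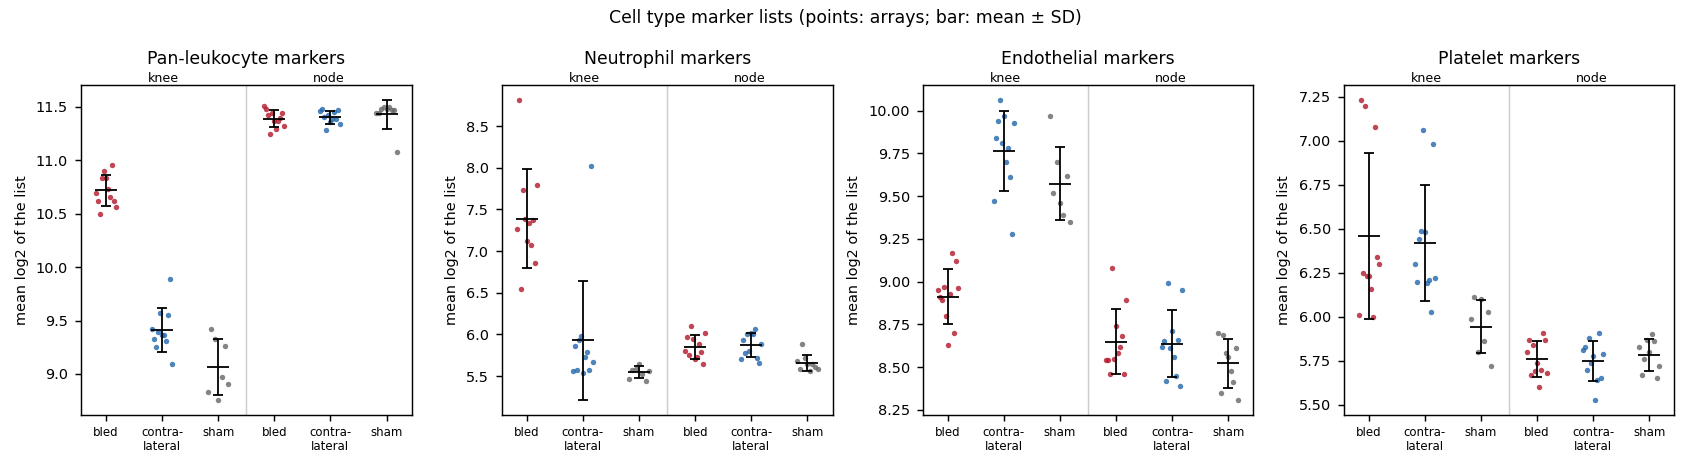
Mean log2 value of the pan-leukocyte, neutrophil, endothelial and platelet marker lists on each array, by tissue and group. Points are arrays and bars are mean ± SD; the bled knees lie above the other knees for pan-leukocyte markers (10.5 to 10.96 against 9.09 to 9.89 in contralateral knees) and below the contralateral knees for endothelial markers, and 1 contralateral knee, that of rat K10, stands at 8.02 for neutrophil markers. The vertical scales differ and do not start at 0.

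Selplg encodes the main P-selectin ligand, a mucin of leukocytes. It ran from 10.29 to 10.93 in bled knees (median 10.67), from 8.66 to 9.71 in contralateral knees (median 9.02) and from 8.31 to 9.21 in sham knees (median 8.75). No bled knee overlapped either group. The difference was 1.57 ± 0.11 against the contralateral side (2.96-fold, limma adjusted p = 1.13e-12) and 1.86 ± 0.13 against sham (3.63-fold, limma adjusted p = 6.79e-13). The mean of the bled knees, 10.65, came close to the means of the 3 node groups (10.69 to 10.75), and the ranges of bled knees and nodes overlapped.

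Other genes of the selectin axis moved in both directions. Of 18 measured ligands and ligand-making enzymes, 8 were higher and 6 lower in bled than in contralateral knees (limma), with a median of 0.10. The largest rises were of Cd44, a hyaluronan receptor that can also carry E-selectin ligands (1.53), and St3gal4, a sialyltransferase of selectin ligands (1.17). The largest falls were of the endothelial sialomucins Cd34 (fell by 1.4) and Emcn (fell by 1.39).

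Icam1 encodes the ligand of the beta-2 integrins on endothelium and many other cells. Bled knees lay between 9.42 and 10.19 (median 9.7), contralateral knees between 9.29 and 9.77 (median 9.62) and sham knees between 9.11 and 9.71 (median 9.44), and all 3 groups overlapped. The difference between the sides was 0.13 ± 0.09 (95% interval -0.05 to 0.30, limma adjusted p = 0.293), with 7 of 11 rats higher on the bled side, so a rise of more than 1.23-fold lay outside the interval. Against sham knees Icam1 was 1.23-fold higher (0.30 ± 0.10, limma adjusted p = 0.0128), a call that was lost under quantile normalization within the tissue (0.17, limma adjusted p = 0.161).

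Vcam1 encodes the endothelial and fibroblast ligand of the alpha-4 integrins, and it fell in the bled knees. Its values were 8.69 to 10.24 in bled knees (median 9.45), 10.22 to 11.16 in contralateral knees (median 10.73) and 9.89 to 10.57 in sham knees (median 10.03). Bled and contralateral ranges met only at their ends, and 9 of 11 bled knees lay below every contralateral knee. Vcam1 was 2.23-fold lower than on the contralateral side (-1.16 ± 0.15, limma adjusted p = 1.05e-07), lower in 11 of 11 rats, and 1.51-fold lower than in sham knees (-0.59 ± 0.17, limma adjusted p = 0.00494). Contralateral knees had the highest Vcam1 of the 3 knee groups, but their difference from sham, 0.56 ± 0.17, did not pass (limma adjusted p = 0.0796). Of 11 synovial fibroblast and lining markers 7 were lower and 1 higher in bled than in contralateral knees (limma; median -0.26), with list means from 10.43 to 11.13 in bled, 11.07 to 11.59 in contralateral and 11.45 to 11.84 in sham knees. All 11 adipocyte markers were lower (median -2.19), with list means from 8.28 to 9.74 in bled and from 11.01 to 11.67 in contralateral knees. Their part in the Vcam1 values, like that of the endothelial markers above, was not tested.

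The promoters of these 2 ligands and of Itgam are shown because Vcam1 fell between the sides of the knee, Icam1 did not pass there and Itgam rose most among the integrin chains. The sequences are RefSeq promoter windows of the rat build GRCr8, 250 bases before to 50 after the start given for each promoter, and 5 of the 9 members matched an entry (Sele, Icam1, Vcam1, Itgam and Madcam1). The start given for a promoter is not always that of the annotated gene. Icam1 is annotated from 27829688 and Itgam from 192089496, so in these 2 windows part of the bases before the given start lies within the gene. By that annotation the Icam1 TATAAA, its GC box from -82 to -77 and the Itgam purine box from -39 to -34 lie inside the gene. The Vcam1 window overlaps its gene only after the given start. Capitals mark matches, on either strand, to the NF-kB (kappaB) consensus motif, a kappaB variant (GGAAATTCC), the TATA box (TATAAA), the purine box that PU.1-type factors bind (GAGGAA) and, as the last motif searched, the GC box (GGGCGG). The variant is not a match to the consensus. The windows are chr8:27829595-27829894 (plus strand) for Icam1, chr2:206742734-206743033 (minus strand) for Vcam1 and chr1:192089342-192089641 (plus strand) for Itgam.
Icam1: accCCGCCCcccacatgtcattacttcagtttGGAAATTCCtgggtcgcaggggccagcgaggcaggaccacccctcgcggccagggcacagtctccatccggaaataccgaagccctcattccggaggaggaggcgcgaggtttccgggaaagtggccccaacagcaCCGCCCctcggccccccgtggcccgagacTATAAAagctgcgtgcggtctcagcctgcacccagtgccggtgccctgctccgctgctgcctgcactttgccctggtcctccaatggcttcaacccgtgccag
Vcam1: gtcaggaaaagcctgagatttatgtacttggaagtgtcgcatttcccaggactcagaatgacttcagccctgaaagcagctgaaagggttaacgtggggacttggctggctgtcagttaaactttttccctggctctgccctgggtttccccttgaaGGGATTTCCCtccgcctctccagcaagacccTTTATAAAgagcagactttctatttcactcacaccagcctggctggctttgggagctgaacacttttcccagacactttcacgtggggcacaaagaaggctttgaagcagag
Itgam: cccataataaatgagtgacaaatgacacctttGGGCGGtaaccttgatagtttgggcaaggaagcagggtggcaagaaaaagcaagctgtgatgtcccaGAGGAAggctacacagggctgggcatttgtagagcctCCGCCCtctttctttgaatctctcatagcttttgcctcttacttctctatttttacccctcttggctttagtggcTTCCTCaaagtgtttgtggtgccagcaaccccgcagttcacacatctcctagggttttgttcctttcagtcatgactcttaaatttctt
The Icam1 window held GGAAATTCC from -218 to -210, counted here and below from the start given for the promoter. This variant is present in 0.328% of 27457 promoter windows. The Vcam1 window held a kappaB consensus match from -93 to -84, read on both strands, as did 7.6% of windows, and TATAAA on both strands in overlapping letters from -62 to -55. The Itgam window held the purine box at -151 and, on the minus strand, from -39 to -34, a motif present in 27.5% of windows, and no TATAAA, which 14.3% hold. GC boxes, in 34.9% of windows, occurred in Icam1 and Itgam. The Madcam1 window held kappaB consensus matches at -118 to -109 and -106 to -97. The Sele window held none of the 5 motifs, which says only that these letters are not in that window. It runs from 78936264 to 78936563 on the plus strand, wholly inside the annotated Sele gene (78935997 to 78945905). The sequence before the Sele gene was therefore not searched.

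Genes of the same adhesion family and the signals that induce it also split. Of 15 other measured immunoglobulin-like adhesion genes, 3 were higher and 6 lower in bled than in contralateral knees (limma; median -0.18). Cd2, a T and NK cell receptor, was 11.6-fold higher and Alcam, an activated-leukocyte adhesion molecule, 3.56-fold higher, while Cd99l2 was 3.89-fold lower and Jam3, a junctional molecule, 1.9-fold lower. Of 11 junction and docking genes, 3 were higher and 7 lower (median -0.28): the membrane-cytoskeleton linkers Ezr (1.48) and Msn (0.61) rose most, and Cldn5, the endothelial claudin, and Cav1, the caveolar coat protein, fell by 1.57 and fell by 1.49. Of 16 cytokine, receptor and NF-kB genes that can induce endothelial adhesion molecules, 11 were higher and 1 lower (median 0.42), led by Il1b (9.14-fold, limma adjusted p = 2.81e-13) and Il4r (3.59-fold); Rela, an NF-kB subunit, fell by 0.34.

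Itgam, the alpha-M chain of neutrophils, monocytes and macrophages (Mac-1, CD11b), rose most among the integrin members. Its values were 10.39 to 10.98 in bled knees (median 10.72), 7.69 to 8.9 in contralateral knees (median 8.43) and 7.53 to 8.28 in sham knees (median 7.88). The bled knees left a wide gap to all other knees. Itgam was 5.03-fold higher than on the contralateral side (2.33 ± 0.11, limma adjusted p = 1.01e-16) and 6.84-fold higher than in sham knees (2.77 ± 0.12, limma adjusted p = 7.2e-17), and higher in 11 of 11 rats, by 1.63 to 2.95.

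Itgb2 encodes the beta-2 chain that pairs with Itgam, Itgal and the other CD11 chains. It ran from 11 to 11.45 in bled knees (median 11.24), from 9.09 to 10.09 in contralateral knees (median 9.59) and from 8.82 to 9.49 in sham knees (median 9.33). Again no bled knee overlapped the others. The difference was 3.1-fold against the contralateral side (1.63 ± 0.10, limma adjusted p = 6.01e-14) and 4.1-fold against sham (2.03 ± 0.12, limma adjusted p = 1.76e-14).

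Itgal encodes the alpha-L chain of LFA-1 (CD11a), which lymphocytes carry and which binds ICAM-1. Its bled knees ran from 9.13 to 10.23 (median 9.93), its contralateral knees from 8.4 to 9.66 (median 8.94) and its sham knees from 8.25 to 9.23 (median 8.45). Overlap remained, with 8 of 11 bled knees above every contralateral knee. Itgal was 1.93-fold higher than on the contralateral side (0.95 ± 0.14, limma adjusted p = 1.69e-06) and 2.46-fold higher than in sham knees (1.30 ± 0.16, limma adjusted p = 7.53e-08), and higher on the bled side in 11 of 11 rats.

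Leukocyte markers moved with these chains. Of 10 pan-leukocyte markers 9 were higher in bled than in contralateral knees, with list means from 10.5 to 10.96 against 9.09 to 9.89, and of 13 neutrophil markers 8 were higher and 1 lower, with list means from 6.54 to 8.81 against 5.54 to 8.02. Of 12 T cell markers 11 were higher and 1 lower (list means from 6.96 to 7.65 against 5.87 to 6.76), and of 14 monocyte and macrophage markers 8 were higher and 4 lower (from 10.36 to 10.9 against 10.15 to 10.71). The part of cell number in the integrin values was not tested. Of 11 other measured integrin chains 4 were higher and 2 lower (limma; median 0.20): Itgb7, the partner chain in the receptors for MAdCAM-1 and E-cadherin, was 4.96-fold higher and Itgax, the CD11c chain of dendritic cells and macrophages, 3.68-fold higher, whereas the collagen receptor chain Itga1 fell by 1.01 and Itga9 by 0.73. Of 14 genes of integrin activation 12 were higher and 1 lower (median 0.73), led by the signalling genes Vav1 (1.84) and Fyb1 (1.83), with the non-haematopoietic kindlin Fermt2 falling by 0.96.

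**Figure D3:**
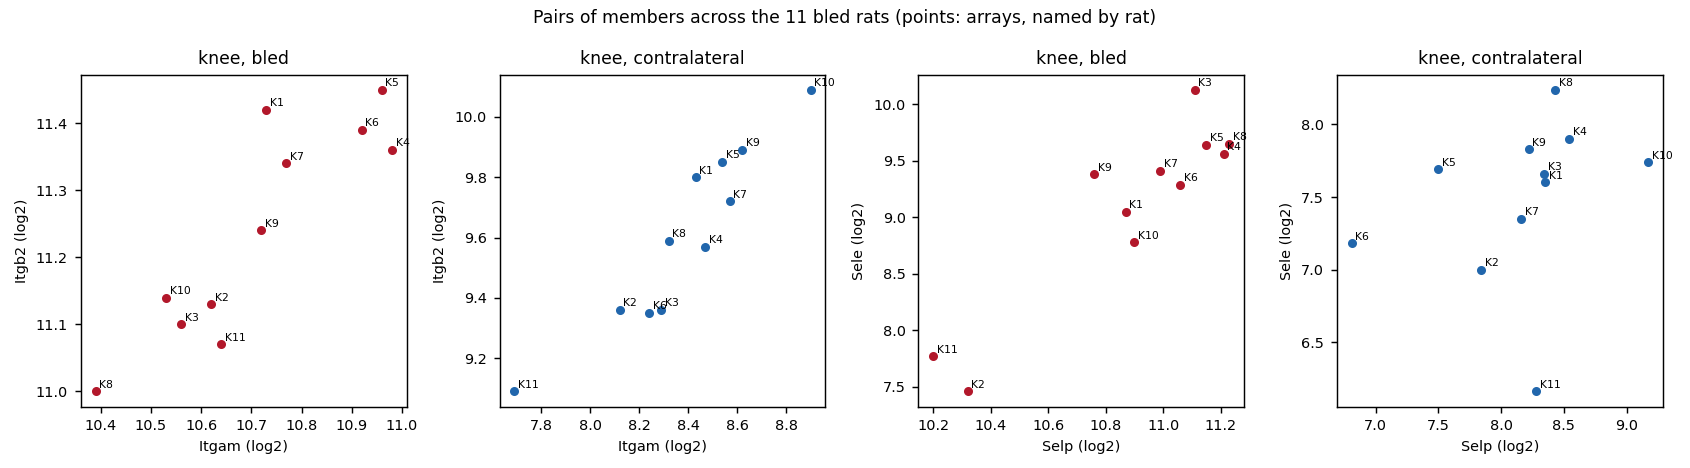
Log2 values of Itgb2 against Itgam and of Sele against Selp in the bled knees (red) and contralateral knees (blue) of the 11 bled rats, each point an array with the name of its rat. Itgam and Itgb2 rise together on both sides (r 0.88 and 0.94), whereas Selp and Sele do so in the bled knees (r 0.92, and 0.61 without K11 and K2). The axes differ between panels.

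Itgam and its partner chain Itgb2 varied together among rats. In the bled knees r was 0.88 (permutation p = 0.00027, adjusted over 12 relations 0.00162; rho 0.83, permutation p = 0.00257) and 0.86 without rats K8 and K4. In the contralateral knees r was 0.94 (permutation p = 1e-05, the smallest that the permutations can give, adjusted 0.00012; rho 0.92, permutation p = 0.00013) and 0.88 without K11 and K10. Itgal and Itgb2 correlated in the contralateral knees (r 0.85, permutation p = 0.00093, adjusted 0.00324; rho 0.74, permutation p = 0.0118; r 0.66 without K10 and K11) and gave r 0.22 in the bled knees (permutation p = 0.522; rho 0.04). Icam1 and Itgb2 gave r 0.82 in contralateral knees (permutation p = 0.0019, adjusted 0.00456) and rho 0.75 (permutation p = 0.0103). Without K11 and K10, the lowest and highest for Icam1, r was 0.60 (permutation p = 0.0929). Leaving them out narrows the range, so how far this relation rested on these knees is not shown. In the bled knees Icam1 and Itgb2 gave r 0.64 (permutation p = 0.0326, adjusted 0.0647) and rho 0.70 (permutation p = 0.0204, adjusted 0.0349). Without K1 and K11 their r was 0.48 (permutation p = 0.187). By Pearson r, Icam1 with Vcam1 (r 0.24 in bled and 0.63 in contralateral knees, adjusted permutation p = 0.522 and 0.0647) and Selp with Selplg (0.36 and 0.37, both adjusted 0.366) did not pass. By Spearman rho, Icam1 with Vcam1 passed in contralateral knees (0.72, adjusted permutation p = 0.0312) and not in bled knees (0.20, adjusted 0.613). Without K11 and K10 the contralateral r was 0.45 (permutation p = 0.22). Each relation runs over 11 knees of the same 11 rats, and the sources used here give no hybridization batch.

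Madcam1 encodes the mucosal addressin, known from vessels of the gut and its nodes. Its group means lay from 5.36 to 5.61 in knees and from 5.39 to 5.42 in nodes, near or below the array medians, and all of its bled knees lay below the median of every array. The sides of the knee did not differ beyond their spread (-0.13 ± 0.09, limma adjusted p = 0.283). Bled knees were lower than sham knees by a small margin (-0.26 ± 0.10, 1.2-fold, limma adjusted p = 0.0427), and this call was lost in 6 of 9 alternative fits and in 10 of 29 fits that left out 1 array (-0.31 to -0.19, limma adjusted p from 0.015 to 0.141): those without the bled knee of K1, K2, K6, K7, K8, K9 or K10 or the sham knee of C1, C5 or C6.

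**Figure D4:**
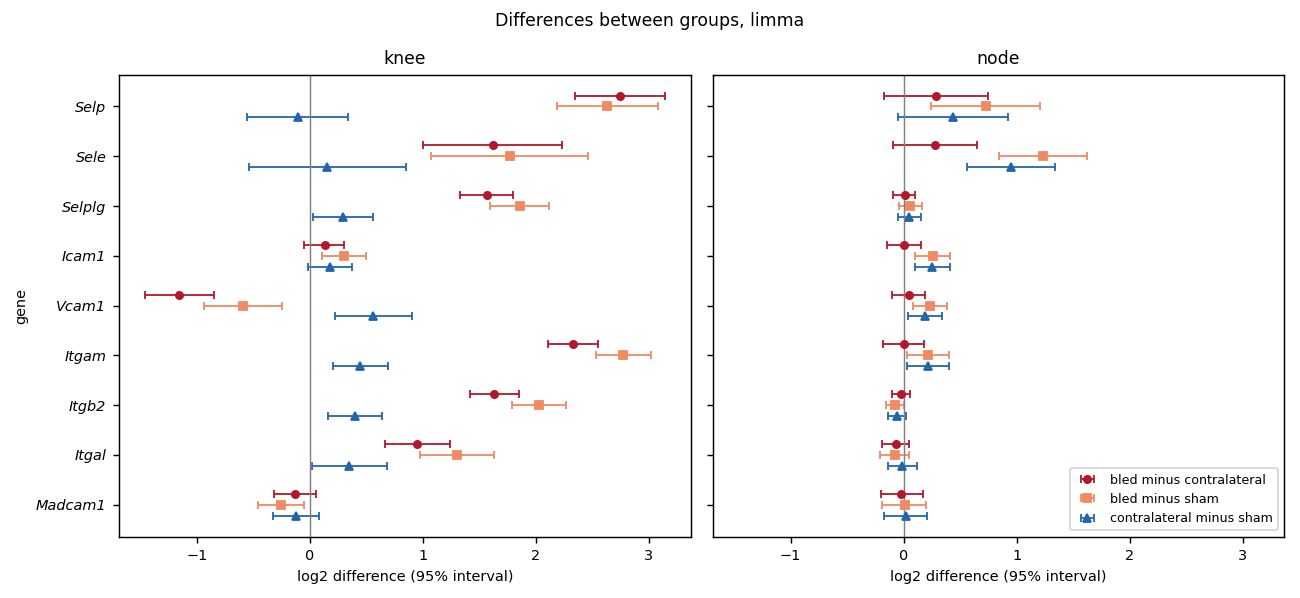
Log2 differences between groups with 95% intervals from limma for the 9 members, knee on the left and node on the right on a common axis. Circles show bled minus contralateral, squares bled minus sham and triangles contralateral minus sham; in the knee the first 2 lie together far from 0 for the selectins, Selplg and the integrin chains, and in the node Sele against sham lies farthest from 0.

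Against sham knees all 9 members passed, 7 higher and 2 lower (38.7% of all probe sets were called, 19.9% higher and 18.8% lower), and the same 4 members as above lay above every sham knee in every bled knee, which held for 9.52% of probe sets. Contralateral knees against sham knees asked how the untouched knee of a bled rat differed from that of a sham rat. Of the 9 members 0 passed, where 1.82% of probe sets did. An unadjusted limma p under 0.05 was seen for 5 members, but the share of all probe sets at that threshold is not given here. The 3 members nearest to an adjusted p of 0.05 were Itgam (0.44 ± 0.12, limma adjusted p = 0.052), Itgb2 (0.40 ± 0.12, limma adjusted p = 0.0739) and Vcam1 (0.56 ± 0.17, limma adjusted p = 0.0796). Several alternatives called 1 to 3 of these genes: Itgam passed with arrays centred on their medians (0.50, limma adjusted p = 0.0313) and without dim probe sets (limma adjusted p = 0.0293), and leaving out 1 array called it 5 times (the contralateral knee of K2 or K11, the bled knee of K8, or the sham knee of C2 or C3; 0.38 to 0.51 over all such fits, limma adjusted p from 0.0081 to 0.148). Itgb2 passed without the contralateral knee of K11 or the sham knee of C2, and Vcam1 without the bled knee of K2 or the sham knee of C3. Selp (-0.11 ± 0.22, 95% interval -0.56 to 0.34) and Sele (0.15 ± 0.34, 95% interval -0.54 to 0.85) did not pass on the contralateral side, and their intervals were wide. Without the sham knee of C5 Sele changed sign (-0.09; -0.09 to 0.37 over the fits without 1 array).

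Clock genes moved with this comparison, with every comparison of bled against sham rats and between the knees of the same rats. Bled knees differed from contralateral knees by -1.31 ± 0.17 for Dbp (limma adjusted p = 9.23e-08) and by 0.80 ± 0.22 for Bmal1 (limma adjusted p = 0.0032). In the contralateral knee Dbp differed from sham by 2.15 ± 0.19 (limma adjusted p = 6.36e-08) and Bmal1 by -2.02 ± 0.24 (limma adjusted p = 1.09e-05). The part of the clock, or of the hour of sampling, in the values of the members was not tested. Spn, the leukosialin gene of leukocytes, was the only selectin-axis gene higher in contralateral than in sham knees (0.61 ± 0.12, limma adjusted p = 0.00355), and Chst2, a sulfotransferase, the only one lower (-0.45). The Spn call held in all fits run, and the Chst2 call was lost when only the compared groups were fitted. In the other adhesion lists, Itga2, an integrin chain, was lower (-0.88 ± 0.18, limma adjusted p = 0.00486), as was Fermt2 (-0.47). Cd226 (0.82), Rasgrp2 (0.41) and Jam3 (0.39) were higher. Leaving out 1 array lost Cd226 in 13 of 29 fits, Jam3 in 6 and Rasgrp2 in 1.

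One contralateral knee departed from the others. That of rat K10 was the highest of its group for 7 of the 9 members, among them Itgam (8.9), Selplg (9.71) and Selp (9.17), and its neutrophil marker mean was 8.02 where the other 10 contralateral knees lay between 5.54 and 5.98. Its pan-leukocyte mean was also the highest of the group (9.89) and its endothelial mean the lowest (9.28). K10 also had the smallest difference between sides for 5 members, such as Selplg (0.80, against a median of 1.67). No call on the bled against the contralateral knee was lost when this or any other single array was left out (29 fits; Itgam 2.26 to 2.38, Selp 2.61 to 2.84, Vcam1 -1.23 to -1.07).

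**Figure D5:**
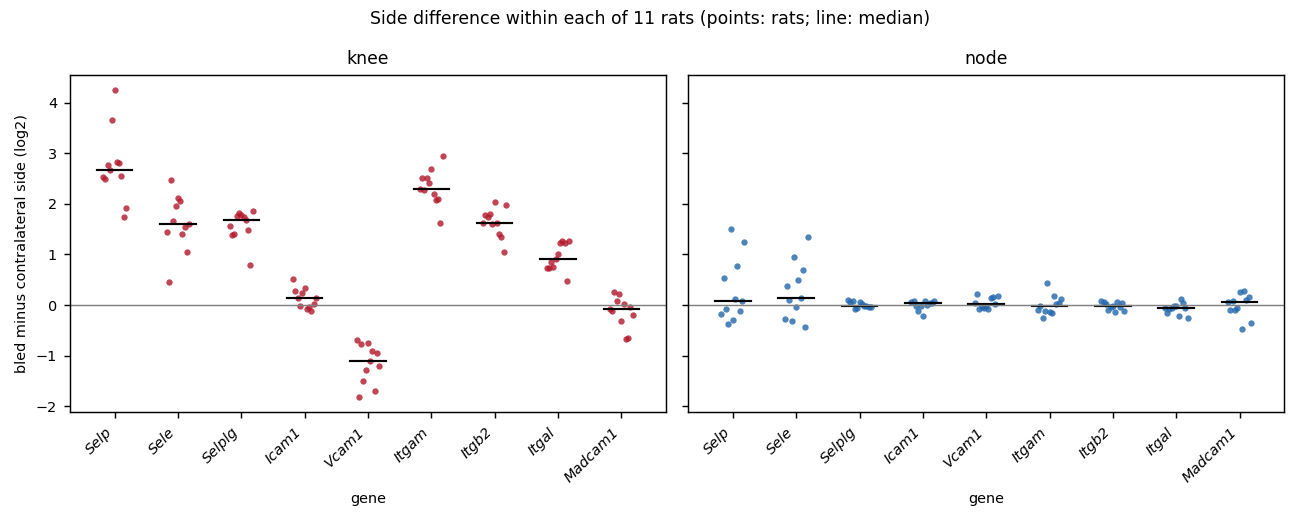
Difference between the bled and the contralateral side within each of the 11 bled rats, in log2 units, for knees (left) and popliteal nodes (right). Points are rats and black lines are medians; in the knee 6 genes lie above 0 and Vcam1 below 0 in every rat, and in the node the medians lie between -0.06 and 0.14.

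Between the popliteal nodes of the sides no member passed. None of the 9 members and 0 of 36685 probe sets passed between bled-side and contralateral nodes (limma; 0 members had an unadjusted p under 0.05). The differences ran from -0.07 (Itgal) to 0.29 (Selp), and the 95% intervals of Selplg (-0.09 to 0.10), Itgb2 (-0.10 to 0.06) and Icam1 (-0.15 to 0.15) were narrow, whereas those of Selp (-0.17 to 0.75) and Sele (-0.09 to 0.65) were not. Selp split the rats: 6 were higher and 5 lower on the bled side, from -0.38 in K4 to 1.5 in K5.

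Against sham nodes Sele rose on both sides. Its log2 values were 6.21 to 7.61 in bled-side nodes (median 7), 5.86 to 7.44 in contralateral nodes (median 6.76) and 5.3 to 6.16 in sham nodes (median 5.7). Every bled-side node lay above every sham node, which held for 0.101% of probe sets, and 8 of 11 contralateral nodes did. Bled-side nodes exceeded sham nodes 2.34-fold (95% interval 1.79 to 3.07; 1.23 ± 0.19, limma adjusted p = 0.00087), the 55th largest difference of the 36685 probe sets, and contralateral nodes did so 1.94-fold (0.95 ± 0.19, limma adjusted p = 0.00467); both comparisons use the same sham arrays. The sham mean, 5.73, lay within the range of the array medians, where a fold change on arrays can be compressed.

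The Sele calls held without the sham nodes of C2 and C9 (1.16, limma adjusted p = 0.00469, and 0.88, limma adjusted p = 0.0204). With the mean of the adipocyte markers as a covariate, the bled-side difference was 1.06 (limma adjusted p = 0.0088) and the contralateral one 0.68, which no longer passed (limma adjusted p = 0.191). Adipocyte marker means ran from 7.25 to 9.01 in sham, from 7.23 to 9.19 in bled-side and from 8.44 to 9.14 in contralateral nodes. Prg4 of the joint lining also differed between contralateral and sham nodes (0.95 ± 0.29, limma adjusted p = 0.0482), as did Dbp (0.75) and Bmal1 (-0.46). Of 12 endothelial and 6 high endothelial venule markers, none passed in either comparison of nodes with sham, with endothelial list means from 8.31 to 8.7 in sham and from 8.46 to 9.08 in bled-side nodes. Markers of other cells did move. Of 11 adipocyte markers 3 were higher in bled-side and 5 in contralateral than in sham nodes (medians 0.42 and 0.80), of 14 monocyte and macrophage markers 4 and 5 (list means from 9.55 to 10.34 in sham, 10.22 to 10.92 in bled-side and 10.14 to 10.8 in contralateral nodes), and of 11 fibroblast and lining markers 1 and 4 (from 8.44 to 8.91, 8.71 to 9.22 and 8.83 to 9.23); none of these 3 lists had a lower member. Of 13 neutrophil markers 1 was higher in each comparison with sham, and of 6 muscle markers 1 was lower in bled-side nodes. None of the T cell, B cell, platelet, erythroid or pan-leukocyte markers passed. The part of macrophage, fibroblast, neutrophil and muscle markers in the Sele values was not tested.

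Among the other members in the node, 2 of 9 passed in each comparison with sham, Sele and Icam1, where 4.26% (bled side) and 5.03% (contralateral) of probe sets were called. Icam1 ran from 10.1 to 10.54 in bled-side nodes (median 10.31), from 10.18 to 10.48 in contralateral nodes (median 10.28) and from 9.5 to 10.32 in sham nodes (median 10.08). The ranges overlapped. The differences of 0.26 ± 0.08 (limma adjusted p = 0.0476) and 0.25 ± 0.08 (limma adjusted p = 0.0444) were close to the threshold and were lost in 24 and 14 of 31 fits without 1 array (0.19 to 0.29 in both; limma adjusted p up to 0.111 and 0.104). Without the sham nodes of C2 and C9 both were 0.15 (limma adjusted p = 0.174 and 0.173). The bled-side call held only in the fits without the contralateral node of K1, the bled-side node of K5 or K6, or the sham node of C1, C3, C4 or C8; the contralateral call was lost without the contralateral node of K1, K2, K3, K4, K6, K7, K8 or K11, the bled-side node of K9, or the sham node of C2, C5, C6, C7 or C9.

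Selp in bled-side nodes was 0.73 ± 0.24 above sham, or 1.65-fold, and did not pass (limma adjusted p = 0.0775). Its nodes ran from 7.23 to 8.94 on the bled side (median 7.72), from 7.3 to 8.49 on the contralateral side (median 7.53) and from 6.11 to 8.17 in sham (median 7.27), with wide overlap. Leaving out the bled-side node of K6 or the sham node of C4 brought it under the threshold (limma adjusted p = 0.0493 and 0.0353), as did leaving out dim probe sets (limma adjusted p = 0.0462). Vcam1 in bled-side nodes (0.23 ± 0.07, limma adjusted p = 0.0644) passed in 4 of 10 alternatives: with rat as a random block (limma adjusted p = 0.0493), with arrays centred on their medians (0.29, limma adjusted p = 0.0474), without dim probe sets (limma adjusted p = 0.0352) and with 1 probe set per gene (limma adjusted p = 0.0446). It also passed without the bled-side node of K3 (0.19 to 0.27 over the fits without 1 array, limma adjusted p from 0.0299 to 0.122). The leukocyte members Selplg, Itgb2 and Itgal were within 0.08 of sham on both sides, and Itgam was 0.22 ± 0.09 higher on both (limma adjusted p = 0.18 and 0.174).

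Some other adhesion genes were called in the nodes, where 4.26% of all probe sets were called on the bled side against sham. In bled-side against sham nodes, 2 of 18 selectin-axis genes were higher (Podxl, a sialomucin, 0.51; St3gal4, 0.35), 2 of 11 integrin chains (Itgax, 0.40; Itgb1, 0.21), and none of the 15 immunoglobulin-like, 11 junction or 14 activation genes passed. Of the 16 inducer genes 3 were higher, among them the cytokine receptors Tnfrsf1a (0.47) and Il1r1 (0.42), and 2 lower, the cytokines Lta (-0.48) and Tnf (-0.32; limma adjusted p = 0.0431). Of these 8 named genes only Itgax held in all alternatives. The other 7 were lost with the adipocyte covariate, and St3gal4, Itgb1, Tnfrsf1a and Il1r1 also without the sham nodes of C2 and C9. Leaving out 1 array lost Tnf in 15 of 31 fits (-0.37 to -0.29, limma adjusted p from 0.0157 to 0.0868), St3gal4 in 3 (without the bled-side node of K8 or the sham node of C2 or C9), and Il1r1 and Lta in 1 each, without the sham node of C2.

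The difference between tissues was tested directly. The bled-against-contralateral difference was larger in knee than in node for Selp (2.45 ± 0.31), Sele (1.34 ± 0.36), Selplg (1.56 ± 0.12), Itgam (2.33 ± 0.14), Itgb2 (1.65 ± 0.11) and Itgal (1.02 ± 0.15), and more negative for Vcam1 (-1.20 ± 0.16), all at a limma adjusted p of 0.00207 or less, where 27.8% of probe sets passed. Against sham, 6 members differed between tissues (31.3% of probe sets). Sele did not: its knee minus node difference was 0.54 ± 0.39 (95% interval -0.24 to 1.32, limma adjusted p = 0.327). For contralateral against sham, Itgb2 alone passed (0.46 ± 0.12, limma adjusted p = 0.0254; 2.03% of probe sets), a call lost with arrays centred on their medians (limma adjusted p = 0.0508) and without the sham arrays that stood apart (limma adjusted p = 0.0569).

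In sham rats the tissues themselves differed for 8 of 9 members (52.5% of probe sets). Sham knees exceeded sham nodes for Sele (3.05-fold) and Selp (2.02-fold), and sham nodes exceeded sham knees for Itgal (5.67-fold), Selplg (3.72-fold), Itgb2 (3.36-fold), Vcam1 (1.97-fold), Icam1 (1.56-fold) and Itgam (1.36-fold), each at a limma adjusted p of 0.000922 or less. Madcam1 differed by 0.22 ± 0.11 (limma adjusted p = 0.0757) and passed when all arrays were quantile normalized together (0.26, limma adjusted p = 0.0228) or centred. In the order of the 6 group means, bled knees came first for Selp, Sele, Itgam and Itgb2 and last for Vcam1 and Madcam1, whereas the 3 node groups came first, within overlapping ranges, for Selplg, Icam1, Vcam1 and Itgal.

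The genes whose log2 values were most like a member's over the 60 arrays differed between members. By Pearson r, given as a description because the arrays share tissues and groups, Selplg was closest to Fermt3, the kindlin of blood cells, and Lcp1, a leukocyte actin-bundling protein (r 0.99 each). Itgal was closest to Cd180 (0.99) and Ly86 (0.98), which form a receptor pair of B cells and myeloid cells. Itgam was closest to the myeloid receptor genes Clec4a2 and Igsf6 (0.97 each), and Itgb2 to Parvg and RT1-DMb (0.97 each). Selp was closest to Slc39a14, a metal transporter, and Xpnpep1 (0.95 each), Sele to Ada, adenosine deaminase (0.89), and Slc41a2 (0.88), Vcam1 to Hyal1 (0.95) and Gbp5 (0.94), and Icam1 to Tap1 (0.91) and Ugcg (0.90). Within groups, after group means were removed, the closest were Csf3r, the G-CSF receptor, for Itgam (0.79), Spi1, which encodes PU.1, for Itgb2 (0.78), Nckap1l for Selplg (0.82) and Mt2A, a metallothionein, for Selp (0.67). For Madcam1 no gene exceeded 0.62.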

How the data were processed

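Affymetrix rat gene arrays were hybridized with RNA from 60 samples, 29 knees and 31 nodes. The deposited values are log2 expression; per the submitters' processing notes, the authors used RMA with the software Affymetrix Expression Console 1.4.46. Whether the tissues were normalized together is not given in the sources used here, nor is any batch. The 36685 probe sets included 18511 with 1 gene symbol, which named genes; the number of arrays limits the precision.

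Groups and rats came from the labels. With R 4.3.3 and limma 3.58.1 a model of the 3 groups was fitted per tissue to all probe sets, unfiltered, with Benjamini-Hochberg adjustment over 36685; a call is an adjusted p under 0.05. Tissue differences were contrasts in a model of all 60 arrays. Limma p-values measure the spread between arrays within groups of these animals. The sides and tissues of a rat were treated as independent. Differences are of group means of log2 values ± SE. Correlations between members used 100000 permutations (Python 3.11.15, numpy 2.4.6, scipy 1.17.1).

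Members and lists were chosen with earlier results of these data known. Named besides members were up to 2 genes each way per list and comparison, by size of called difference, and the 2 genes most alike per member and measure; clock, marker and other genes beside them were named after their values were seen. The 12 marker lists were summed as means of log2 values.

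Rat pairs the sides, per the labels: deviations correlated between sides from -0.1 to 0.21 (knee) and 0.12 to 0.32 (node). Fits reported had no block. Alternatives were a rat block, only the compared groups, quantile or median scaling, a filter on dim probe sets, a trended robust prior, array weights, 1 probe set per gene, a muscle or adipocyte covariate, and leaving out arrays. The models were tested on simulated data.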

Additional observations from a re-analysis of the deposited data

Results flagged for a closer look

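Of 18 sham groups of member values, 2 held an array far from the rest, where chance alone marks about 5% of such groups. The sham node of rat C2 was lowest for Itgb2 at 10.75, with the next array at 10.9. The sham node of rat C9 was lowest for Itgal at 10.66, with the next at 11.03, and C9 was the lowest sham node for 7 of the 9 members.

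The tissues differed in several contrasts, tested in the model of all arrays (knee minus node, log2). For bled minus contralateral the differences were 2.45 for Selp, 1.34 for Sele, 1.56 for Selplg, -1.2 for Vcam1, 2.33 for Itgam, 1.65 for Itgb2 and 1.02 for Itgal. For bled minus sham they were 1.91 for Selp, 1.8 for Selplg, -0.83 for Vcam1, 2.56 for Itgam, 2.12 for Itgb2 and 1.37 for Itgal. For contralateral minus sham the difference was 0.46 for Itgb2.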

How the results depend on the processing

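No difference that passed the threshold changed its sign under any alternative run. Of 42 calls on members, 36 held in all alternatives other than leaving out single arrays, and of 20 within a tissue 17 held in every fit without 1 array. With rat as a replicate block, pairing the sides of a rat, 7 members still passed between the sides of the knee and 0 in the node, and the only call that changed was Vcam1 in bled-side against sham nodes, gained at a limma adjusted p = 0.0493. For contralateral against sham knees (0 members called), fitting only the compared groups or a trended robust prior called 1, centring or 1 probe set per gene called 2, leaving out dim probe sets called 3, and leaving out single arrays called 0 to 2. For bled-side against sham nodes (2 called), fitting only the compared groups, quantile normalization, array weights, omitting the sham arrays that stood apart or the adipocyte covariate called 1, the rat block, centring or 1 probe set per gene called 3, leaving out dim probe sets called 4, and leaving out single arrays called 1 to 3. For contralateral against sham nodes (2 called), fitting only the compared groups, array weights or omitting the sham arrays that stood apart called 1, the adipocyte covariate 0, and leaving out single arrays 1 to 2. The 1 tissue difference for contralateral against sham fell to 0 with centred arrays or without those sham arrays. Over all probe sets, counts of calls moved from 666 to between 381 and 408 for contralateral against sham knees (only the compared groups, array weights, without the sham arrays that stood apart, which for the knee was C5), from 1561 to 857, 926 and 362 for bled-side against sham nodes (only the compared groups, without C2 and C9, adipocyte covariate; 803 without C2 and 954 without the bled-side node of K11), from 1844 to 1137, 1063 and 55 for contralateral against sham nodes in the same settings (1213, 1195 and 941 in 3 fits without 1 array: the contralateral node of K4 or K11 or the sham node of C2), and from 746 to 480 for the tissue difference in that contrast. The named list genes in the bled knees, 22 against contralateral and 21 against sham knees, held everywhere; of those in contralateral against sham knees 2 of 7, and in bled-side and contralateral against sham nodes 1 of 8 and 0 of 8, held in all alternatives, and 4 in each of the 3 comparisons held in every fit without 1 array. Scaling moved the median of all probe sets by less than 0.1. The mean of several probe sets was not run because no member has several. The causes of these changes were not tested.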
